A study of Mus musculus with 4 samples.

Results

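The loci examined were those of 9 genes of the JAK-STAT5 pathway and its feedback inhibitors, Jak1, Jak3, Stat5a, Stat5b, Stat3, Cish, Socs1, Socs2 and Socs3, and the measurement was open chromatin in regulatory T (Treg) cells. Every ATAC-seq peak that overlapped the body of one of these genes, or the 20 kb on either side, was taken, and peaks of different libraries that overlapped by at least 1 bp were merged into one region. This gave 126 regions, of 272233 in the genome. In 15 of the 126 the region lay in the windows of several of the genes, because Stat5b, Stat5a and Stat3 are neighbours on chromosome 11.

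ATAC-seq reads out open chromatin with a transposase, which can insert its adapters where DNA is accessible, and the reads gather there. Treg cells were sorted as RFP+ cells, 50000 per library, after enrichment of CD4+ cells from the lymph nodes (LNs) of naive female C57BL/6 mice aged 6 to 8 weeks. All mice carried the Foxp3 Rfp/Rfp reporter, in which cells expressing Foxp3 fluoresce red. There were 2 libraries of wild-type (WT) mice and 2 libraries of Il2ra mut/mut mice. The mut allele is a spontaneous point mutation in the gene for CD25, the α chain of the IL-2 receptor. It arose in a Ccr2-/- colony, was crossed to C57BL/6 and strongly lowers CD25 on the cell surface. The comparison asks where chromatin at the genes that carry and restrain the IL-2 signal differs when the signal is weakened.

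When IL-2 binds its receptor, JAK1 on the β chain and JAK3 on the common γ chain phosphorylate each other and the receptor, and STAT5A and STAT5B dock there, are phosphorylated, pair up and move to the nucleus. STAT proteins bind DNA words of the form TTCNNNGAA, often as TTCCNGGAA, and STAT5 pairs can join into tetramers on neighbouring words. Among the genes that STAT5 switches on are Cish and several Socs genes, whose products block the receptor or the JAKs, so that the pathway restrains itself. In Treg cells STAT5 also acts at Foxp3. STAT3, which other cytokines activate, binds similar words.

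The words were searched on both strands in the 300 bp around the summit of each region. TTCCNGGAA lay in 6 of the 126 regions (4.76%), against 0.975% of all regions of the genome. All 6 lay at Cish and the Socs genes, and none at the JAK or STAT genes. Among regions called in all 4 libraries it lay in 4 of 67 (5.97%), against 1.31% of 38281 such regions in the genome. The 4 were the promoter regions of Cish, Socs2 and Socs3 and a region downstream of Socs1. The word thus lay in 3 of 16 promoter regions (18.8%), against 1.15% of such promoter regions in the genome. Outside promoters it lay in 1 of 51 (1.96%), near the 1.38% of the genome. The sites are shown because they are the letters that STAT5 is known to read at its own inhibitors. They are from mm10, 5′ to 3′ on the strand of the gene, with every TTCNNNGAA in capitals.

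Cish, first site, chr9:107296654-107296683, plus strand: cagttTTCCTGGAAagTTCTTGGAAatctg
Cish, second site, chr9:107296762-107296791, plus strand: ggTTCTAGGAAgatgaggcTTCCGGGAAgg
Socs2, chr10:95416899-95416928, minus strand: gcggaTTCCTGGAAagTTCCTGGAAagcgg
Socs3, chr11:117969229-117969257, minus strand: ggccgggcagTTCCAGGAAtcggggggcg

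The Cish promoter held 4 words in 300 bp, and 1 other region called in all 4 libraries held as many, since 2 of 38281 did. In the first Cish site and in the Socs2 site the starts of the words lay 11 bp apart. A pair of words with that spacing occurred in 2 of the 38281 regions called in all 4 libraries, and the 2 were these promoters. The spacing was chosen after the sequences had been seen, and a match is a description of the letters, not proof of binding.

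The region downstream of Socs1 lay 13281 bp past the transcription start site (TSS), outside any gene. It is shown over 160 bp, on the strand of Socs1, because it held the strongest peak at Socs1 and a TTCCNGGAA word close to a second word.

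Socs1 downstream region, chr16:10772235-10772394, minus strand: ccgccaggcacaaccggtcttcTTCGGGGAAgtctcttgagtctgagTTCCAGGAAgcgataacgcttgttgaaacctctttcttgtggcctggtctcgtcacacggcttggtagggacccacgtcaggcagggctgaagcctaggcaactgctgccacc

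The nearest TTCCNGGAA lay 6 and 88 bp from the summit of this Socs1 region in the WT libraries (replicates 1 and 2), with 22 and 80 bp in Il2ra mut/mut. At the Socs3 promoter the distances were 99, 74, 10 and 25 bp in the same order, and at the Socs2 promoter 115, 23, 41 and 77 bp. At the Cish promoter they were 29, 7, 795 and 65 bp. In Il2ra mut/mut replicate 1 the highest point of the wide Cish region was therefore elsewhere. In the other 15 library values the summit lay within 115 bp of a word. These regions were chosen for a word in the 300 bp around the region's summit, so short distances follow in part from that choice.

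The other 2 regions with TTCCNGGAA, 1360 bp upstream of a Socs2 TSS and 16655 bp downstream of the Socs1 TSS, were called in WT replicate 2 alone. The looser word TTCNNNGAA lay in 11 of the 67 regions called in all 4 libraries (16.4%), against 8.82% in the genome. Of these 11, 8 lay nearest to Cish or a Socs gene, 2 to Jak1 and 1 to Stat5b.

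A region counts as called in a library when one of the peaks the authors listed for that library is part of it. The fold enrichment of a peak is the number of reads at its summit plus 1, over the background plus 1, and its −log10 p gave the same ranking within a library. Depth is unknown, since the lists hold no totals. The lists held 112569 to 142732 peaks, with a background of 0.974 to 1.23 reads and a median of 8 to 10 reads at the summit. Fold enrichments of different libraries are therefore not amounts on one scale. For many regions the fold is set beside its percentile, the position of its −log10 p within the list of its own library. Elsewhere only the folds are given, as deposited. Differences were tested after quantile normalization.

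Most markers of the sorted cells were as labelled, with Cd8b1 and, in 2 libraries, Cd14 as exceptions. Peaks over a TSS were called in all 4 libraries for 5 of 5 Treg genes and 4 of 4 CD4 T cell genes, and in no library for 4 of 4 B cell and 2 of 2 natural killer cell genes. Of 4 myeloid genes, 3 were called in no library and Cd14 in 2. Of the CD8 genes, Cd8b1 was called in all 4 libraries and Cd8a in none. At Foxp3, the gene of the reporter, percentiles were 47.8 and 78.5 in WT against 72.6 and 79.7 in Il2ra mut/mut. Foxp3 stood below Cd8b1 in both WT libraries and above it in both Il2ra mut/mut libraries. Among the markers called in all 4, percentiles were higher in WT at Cd8b1 (84.2 and 84.5 against 66.2 and 76.5), Cd4 (83.2 and 83.8 against 76.4 and 71.4) and Il2ra (94.6 and 95.1 against 89.8 and 91.2). They were higher in Il2ra mut/mut at Tnfrsf18 (86 and 88.9 in WT against 89.1 and 89.3) and Lck (94.4 and 95.4 against 95.5 and 96.5). The part of these markers in the differences at the 9 loci was not tested. The 38426 regions called in all 4 libraries correlated at 0.943 within WT and 0.946 within Il2ra mut/mut (Pearson's r of log2 fold enrichment across regions, which are not independent), and at 0.924 to 0.938 between genotypes.

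Chromatin at the 9 loci was open in the cells of both genotypes. Of the 126 regions, 67 (53.2%) were called in all 4 libraries, against 14.1% of all regions, and 28 (22.2%) in a single library, against 61.3%. Promoter regions, those within 1 kb of a TSS, were called in all 4 libraries in 16 of 23 cases (69.6%), near the 62.7% of all promoter regions. Regions elsewhere were called in all 4 libraries in 51 of 103 cases (49.5%), against 10.7% of such regions in the genome. WT replicate 2 contributed most, with 110 of the 126 regions called there and 15 called there alone.

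The plot of regions along the loci shows how densely each was covered. Cish had 10 regions called in all 4 libraries, or 21.4 per 100 kb of its window, which placed it at percentile 99.7 of 21938 protein-coding genes, for which the median was 2.16. A window also takes in regions of neighbouring genes, such as the Mapkapk3 promoter and introns in that of Cish. Socs1 (13.9), Stat5a (13.7), Stat5b (13.6), Socs3 (13.6) and Jak3 (12.9 per 100 kb) lay between percentiles 97.3 and 98. Jak1 followed with 9.81 and Stat3 with 6.35 per 100 kb. Socs2 had 2 such regions, or 2.78 per 100 kb, at percentile 57.9. Open chromatin at Socs2 was thus near that of the median gene, and at the other 8 genes it was denser.

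**Figure D1:**
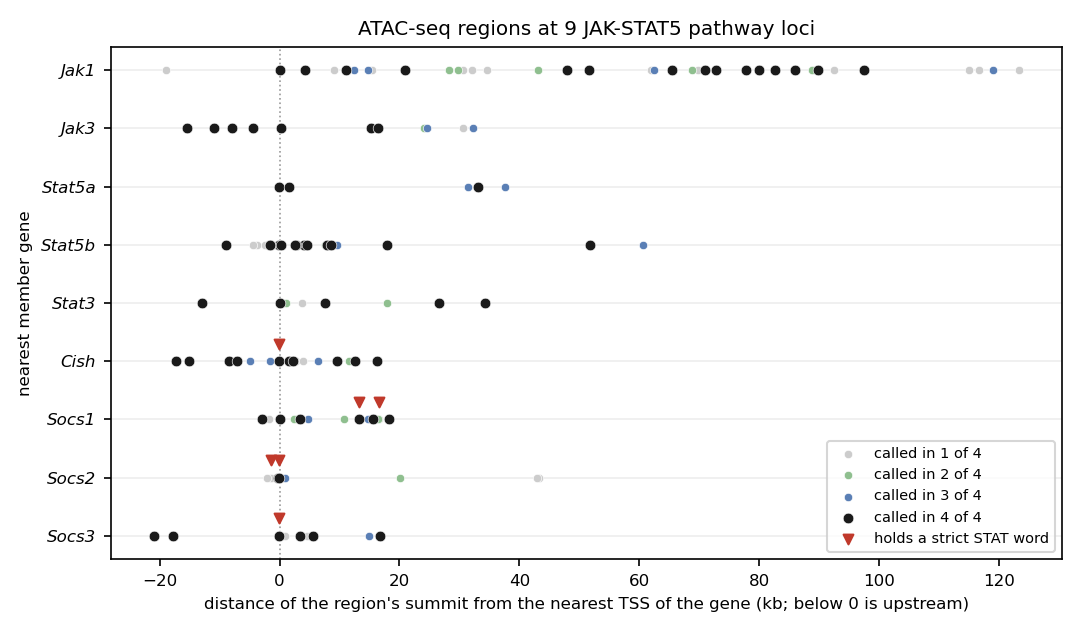
Each point is one of the 126 ATAC-seq regions, placed by the distance in kb of its summit from the nearest TSS of the member gene (horizontal axis) in the row of its nearest member gene, with shading for the number of libraries in which it was called. Red triangles mark the 6 regions with TTCCNGGAA, all of them in the rows of Cish and the Socs genes.

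JAK1 and JAK3 are the kinases of the IL-2 receptor. At the Jak1 promoter (chr4:101264367-101265581, over exon 1) the fold enrichment was 30.4 and 46 in the WT libraries, always given as replicate 1 and then replicate 2, with 40.4 and 37.4 in Il2ra mut/mut. At the Jak3 promoter (chr8:71675785-71676897, over exon 1) it was 13.7 and 17.2 in WT against 13.9 and 19.4 in Il2ra mut/mut. The folds of the genotypes overlapped at both, although at Jak1 the percentiles were slightly higher in Il2ra mut/mut (97 and 97.7 against 97.9 and 97.7, the last value being the higher before rounding). The difference, Il2ra mut/mut minus WT in log2 fold enrichment, was 0.07 (SE 0.13, n = 2 per genotype) at Jak1 and 0.17 (SE 0.23) at Jak3, with adjusted p of 0.895 and 0.844 (limma, Benjamini-Hochberg over 38426 regions).

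Inside the Jak1 gene, a gene of 112916 bp, the regions lay in introns. The strongest, in intron 4 (chr4:101186987-101188301), had folds of 39.5 and 60.6 in WT and of 40.8 and 41.3 in Il2ra mut/mut, above those of the promoter in every library. A weaker region in the same intron (chr4:101185030-101185795) had folds of 10.6 and 15.7 in WT and of 7.63 and 7.29 in Il2ra mut/mut. In this weaker region every WT library was above every Il2ra mut/mut library, and the difference was −0.71 (SE 0.23, unadjusted p = 0.0189, adjusted p = 0.582, limma).

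Regions in introns 7 and 11 of Jak1 showed the same order. In intron 11 (chr4:101167675-101168728) the folds were 20.3 and 31.8 in WT against 17 and 18.5 in Il2ra mut/mut, a difference of −0.46 (SE 0.16, adjusted p = 0.582, limma). In intron 7 (chr4:101179030-101179464) they were 10.1 and 11.1 in WT against 6.73 and 6.32 in Il2ra mut/mut, a difference of −0.62 (SE 0.26, adjusted p = 0.584, limma). Of the 15 regions of Jak1 called in all 4 libraries, 13 had a difference below 0, with a median of −0.24, against a median of 0.00 over all 38426 regions. None of the 15 passed an adjusted p of 0.05.

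Around Jak3 the strongest region outside promoters lay over an exon of the neighbour B3gnt3 (chr8:71692251-71693370), with folds of 27.9 and 27.8 in WT and of 22.9 and 22.4 in Il2ra mut/mut. Both WT folds were higher, but the percentiles overlapped. In an intron of the other neighbour Unc13a (chr8:71665170-71665995) the folds were 7.09 and 9.6 in WT against 5.83 and 3.4 in Il2ra mut/mut, a difference of −0.80 (SE 0.30, adjusted p = 0.582, limma). Of the 7 regions of the Jak3 window called in all 4 libraries, 3 were below 0 and 4 above, with a median of 0.04.

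STAT5A and STAT5B are the transcription factors of the pathway, encoded side by side on opposite strands. The Stat5a promoter (chr11:100860012-100861285) had folds of 58.3 and 70.2 in WT and of 63.7 and 61.7 in Il2ra mut/mut. Its −log10 p was 190 and 241 in WT against 233 and 211 in Il2ra mut/mut, at percentiles of 99.2 to 99.4. The genotypes overlapped, with a difference of −0.03 (SE 0.12, adjusted p = 0.944, limma).

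The Stat5b promoter was the weaker of the pair. At its first exon (chr11:100849938-100850992) the folds were 15.7 and 17.7 in WT against 15.3 and 14.6 in Il2ra mut/mut, at percentiles of 90.5 to 91.9. A second TSS inside intron 1 (chr11:100821792-100823041) had folds of 22.8 and 29.8 in WT and of 17.5 and 19 in Il2ra mut/mut. At this second TSS both WT libraries were above both Il2ra mut/mut libraries, also by percentile, with a difference of −0.47 (SE 0.16, unadjusted p = 0.0232, adjusted p = 0.582, limma). At the first exon the difference was −0.10 (SE 0.21, adjusted p = 0.908, limma).

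Intron 1 of Stat5b held most of the other regions of the 2 genes. The strongest by percentile (chr11:100823881-100824846) had folds of 28.9 and 30.3 in WT and of 23.3 and 26.7 in Il2ra mut/mut, with a difference of −0.22 (SE 0.19, adjusted p = 0.755, limma). Another in that intron (chr11:100845655-100846460) ranged from 11.7 in WT replicate 1 to 31.3 in WT replicate 2, with 17 and 11.7 in Il2ra mut/mut, so the WT libraries spanned both others. The median difference was −0.10 over the 9 regions of the Stat5a window and −0.16 over the 15 of the Stat5b window that were called in all 4 libraries.

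The Stat3 promoter (chr11:100938737-100940379) was the strongest region at any of the 9 genes. Its folds were 61.8 and 84.4 in WT against 77.2 and 76.3 in Il2ra mut/mut, its −log10 p was 205, 302, 296 and 275 in that order, and its percentiles were 99.5 to 99.7. The folds of the genotypes overlapped, while the percentiles (99.5 in both WT libraries against 99.7 and 99.6) did not, and the difference was 0.08 (SE 0.09, adjusted p = 0.83, limma).

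Upstream of Stat3, 12985 bp from the TSS and outside any gene, lay the region with the largest difference of all 67 (chr11:100952060-100952816). Its folds were 14.7 and 13.6 in WT against 5.38 and 4.86 in Il2ra mut/mut, from 28 and 26 reads against 11 and 9 reads at the summit. The percentiles were 91.2 and 87.7 in WT against 66.2 and 62.3 in Il2ra mut/mut, so the genotypes were well apart. The difference was −1.43 (SE 0.30, unadjusted p = 0.0024), with an adjusted p of 0.582 in the limma fit. With median centring in place of quantile normalization the adjusted p was 0.00269 by limma, and with a robust estimate of the spread, an alternative chosen after seeing the data, it was 0.00283. Without scaling it was 0.225, with a replicate block 0.656, and with one library left out 0.483 to 0.606, all by limma. The 160 bp around its summit are shown as the element where the libraries differed most, on the strand of Stat3, and hold no STAT word.

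Stat3 upstream region, chr11:100952445-100952604, minus strand: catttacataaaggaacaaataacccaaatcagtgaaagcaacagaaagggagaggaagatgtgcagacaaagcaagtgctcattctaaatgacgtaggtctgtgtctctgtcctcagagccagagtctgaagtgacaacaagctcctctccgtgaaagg

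Within Stat3 the regions went both ways. In intron 1 (chr11:100931498-100932043), a WT-unique region by the criterion given further on, the folds were 13.7 and 12.1 in WT against 10.3 and 5.83 in Il2ra mut/mut, with overlapping percentiles and a difference of −0.65 (SE 0.38, adjusted p = 0.655, limma). In another intron (chr11:100891556-100892275) they were 10.1 and 16.7 in WT, with no peak in Il2ra mut/mut replicate 1 and a fold of 6.8 in replicate 2. The WT folds were the higher in both introns. In the second the percentiles were 86.7 and 89.9 in WT against 81.8 in Il2ra mut/mut replicate 2. Over exon 8 (chr11:100904610-100905379) the folds were 7.6 and 14.1 in WT against 16.1 and 13.6 in Il2ra mut/mut. The folds overlapped, the percentiles (81.9 and 88.2 against 91.6 and 91.2) did not, and the difference was 0.62 (SE 0.25, unadjusted p = 0.044, adjusted p = 0.582, limma). Also in intron 1, a weak region near the promoter (chr11:100938139-100938465) was called in both WT libraries alone, with folds of 4.05 and 4.55. Another (chr11:100921341-100921645) was called in both Il2ra mut/mut libraries alone, with a fold of 5.83 in each.

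CIS, the product of Cish, and SOCS1, SOCS2 and SOCS3 are the feedback inhibitors. The Cish promoter (chr9:107295367-107297142), which holds the 4 STAT words, had folds of 16.7 and 25.8 in WT and of 17 and 19.4 in Il2ra mut/mut. Its −log10 p was 37.7 and 67.1 in WT against 41.8 and 47.4 in Il2ra mut/mut, at percentiles of 92.1 to 94. The genotypes overlapped in fold and in percentile, and the difference was −0.13 (SE 0.17, adjusted p = 0.846, limma).

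The strongest region near Cish lay 16289 bp downstream of the TSS, outside any gene (chr9:107312661-107313689). Its folds were 26.8 and 47.5 in WT against 38.6 and 34 in Il2ra mut/mut, above the Cish promoter in every library. The genotypes overlapped, with a difference of 0.04 (SE 0.16, adjusted p = 0.952, limma).

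On the other side, 17298 bp upstream of Cish and inside an intron of Mapkapk3, a region (chr9:107278543-107278968) had folds of 4.05 and 7.07 in WT and of 10.8 and 14.1 in Il2ra mut/mut. These came from 7 and 13 reads in WT against 23 and 28 reads in Il2ra mut/mut, and the percentiles were 26.6 and 76.7 against 87.3 and 91.5. Both Il2ra mut/mut libraries were higher. The difference was 1.32 (SE 0.31, unadjusted p = 0.00425, adjusted p = 0.582, limma), the largest in that direction among the 67. By limma with median centring the adjusted p was 0.0152, and with the robust estimate of the spread it was 0.0104. Without scaling it was 0.597, with a replicate block 0.656, and 0.483 to 0.606 with one library left out.

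This region held 3 AP-1 words (TGANTCA, searched on both strands in 300 bp). At least 1 such word lay in 10.6% of all regions called in all 4 libraries and in 13.1% of those outside promoters. The share with 3 was not counted. AP-1 was 1 of 8 kinds of word searched, and it was picked for this region after the counts had been seen. The 160 bp around the region's summit are shown with the AP-1 words inside that stretch in capitals.

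Region in the Mapkapk3 intron, chr9:107278648-107278807, plus strand: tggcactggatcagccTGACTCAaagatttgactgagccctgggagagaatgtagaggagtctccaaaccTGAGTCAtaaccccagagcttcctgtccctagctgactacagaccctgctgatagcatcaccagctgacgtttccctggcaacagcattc

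Of the 10 regions of the Cish window called in all 4 libraries, 9 had a difference above 0, with a median of 0.15, and 5 had both Il2ra mut/mut percentiles above both WT percentiles, an order found in 26.2% of all regions called in all 4. The smallest difference of these 5 was 0.13 (SE 0.16), in Cish intron 1, and another in that intron was 0.15 (SE 0.28) (chr9:107298051-107298671), where the folds were 8.61 and 8.08 in WT against 9.42 and 8.26 in Il2ra mut/mut.

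Socs1 has a compact gene with a wide promoter region (chr16:10784209-10786771). There the folds were 29.4 and 42.9 in WT against 33.2 and 35 in Il2ra mut/mut. The downstream region printed above was stronger, with folds of 42 and 62.1 in WT and of 46.7 and 51.5 in Il2ra mut/mut, and it stood at percentiles of 98.5 to 98.9. In both regions the folds and the percentiles of the genotypes overlapped, with differences of −0.05 (SE 0.13) and −0.06 (SE 0.11) and adjusted p of 0.931 and 0.9 (limma).

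Next to Socs1, 2862 bp upstream of its TSS and over an exon of Tnp2 (chr16:10788116-10789466), the folds were 4.05 and 6.57 in WT against 8.07 and 7.29 in Il2ra mut/mut. Both Il2ra mut/mut libraries were higher, by 0.68 (SE 0.27, unadjusted p = 0.0458, adjusted p = 0.583, limma). Tnp2 encodes a protein of sperm chromatin.

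Socs2 was the least open of the 9 genes. Its outer promoter (chr10:95416464-95417487), with the paired STAT words, had folds of 6.08 and 13.6 in WT and of 8.52 and 11.2 in Il2ra mut/mut, at percentiles of 75.3 to 89.3. The WT libraries differed from each other by more than the genotypes did, and the difference was 0.24 (SE 0.33, adjusted p = 0.848, limma). An inner TSS (chr10:95415399-95416266) had folds of 5.57 and 7.07 in WT and of 8.07 and 7.78 in Il2ra mut/mut, which did not overlap, with a difference of 0.43 (SE 0.24, adjusted p = 0.636, limma).

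At the Socs3 promoter (chr11:117968794-117970716) the genotypes did not overlap. Its folds were 23.3 and 34.4 in WT against 37.7 and 38.4 in Il2ra mut/mut, and its −log10 p was 58.7 and 97.4 against 120 and 115. The percentiles were 95.3 and 96.1 in WT against 97.6 and 97.9 in Il2ra mut/mut. The difference was 0.44 (SE 0.13, unadjusted p = 0.012), and the adjusted p was 0.582 by limma. Further downstream, 16806 bp from the TSS (chr11:117951966-117952895), the folds were 20.8 and 34.4 in WT against 28.3 and 38.4 in Il2ra mut/mut, which overlapped.

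**Figure D2:**
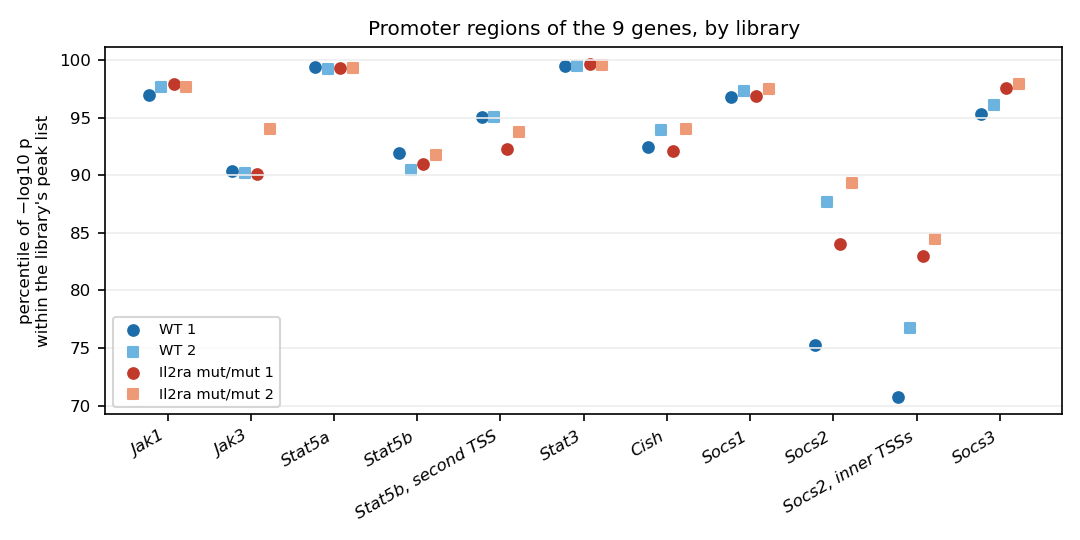
The percentile of −log10 p within each library's own peak list (vertical axis) is plotted for the promoter regions of the 9 genes that were called in all 4 libraries, with 1 marker per library. Stat3 and Stat5a stand at or above 99.2 in every library, the Socs2 regions lie lowest, and both Il2ra mut/mut markers are above both WT markers at Socs3, Stat3, Jak1 and the inner Socs2 TSS, with the opposite order at the second Stat5b TSS.

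Across the 67 regions called in all 4 libraries, none passed an adjusted p of 0.05 in either direction by limma, and the share of all regions that did was 0.00% lower and 0.00% higher in Il2ra mut/mut. The lowest adjusted p was 0.582. At an unadjusted p under 0.05, 5 of the 67 (7.46%) were lower and 4 (5.97%) higher in Il2ra mut/mut, against 4.37% and 4.18% of all regions. With median centring, or with the robust estimate, limma called 1 of the 67 lower and 1 higher, the region upstream of Stat3 and that in the Mapkapk3 intron. The exact permutation test of 2 libraries against 2 cannot give a two-sided p below 0.333.

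By percentile, 11 of the 67 regions (16.4%) had both WT libraries above both Il2ra mut/mut libraries, against 12.6% of all regions, and 15 (22.4%) had the opposite order, against 26.2%. When each region was ranked among the regions called in all 4 libraries only, an alternative chosen after seeing the data, the counts were 14 (20.9%, against 19.4%) and 11 (16.4%, against 20.4%). The excess of higher Il2ra mut/mut percentiles thus depended on the ranking, and the members' shares were near those of the genome under both. Of the 126 regions, 2 (1.59%) were called in both WT libraries alone and 2 (1.59%) in both Il2ra mut/mut libraries alone, against 2.70% and 3.56% of all regions.

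The median differences of the groups did not share one sign, but each was smaller than the median SE of its regions (0.24 or 0.25). At Jak1 and Jak3, 16 of 22 regions had a difference below 0, with a median of −0.24. By gene these were 13 of 15 at Jak1, with a median of −0.24, and 3 of 7 at Jak3, with a median of 0.04. The percentiles at these kinase genes were higher in WT at 6 and higher in Il2ra mut/mut at 3 (12.6% and 26.2% of all regions). At the STAT genes 12 of 21 were below 0, with a median of −0.10. There the percentiles were higher in WT at 5 and higher in Il2ra mut/mut at 4. At Cish and the Socs genes 16 of 24 were above 0, with a median of 0.15. By gene these were 9 of 10 at Cish, 3 of 6 at Socs1, 2 of 2 at Socs2 and 2 of 6 at Socs3. The median at Socs3 was −0.14. Over the 24 regions the percentiles were higher in WT at 0 and in Il2ra mut/mut at 8, again against 12.6% and 26.2% of all regions. Over all 38426 regions 18962 were below 0 and 19436 above. These are counts of neighbouring regions in 4 libraries and were not tested, and single regions of each group go both ways. Leaving out Il2ra mut/mut replicate 1 brought the medians to −0.10 for the kinases and 0.03 for the inhibitors, and leaving out WT replicate 1 brought that of the inhibitors to 0.04.

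**Figure D3:**
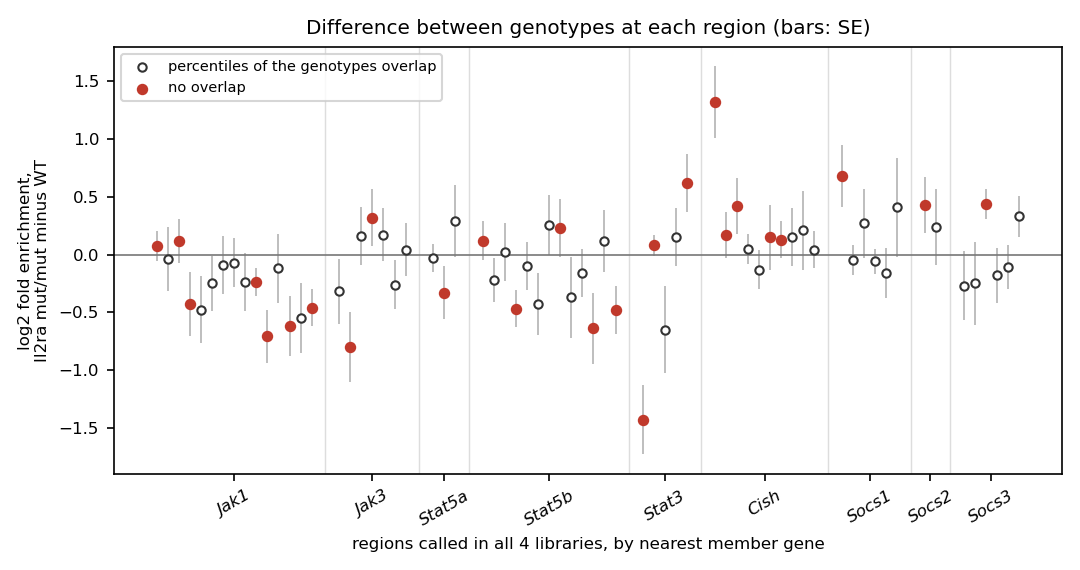
Each point is a region called in all 4 libraries, in the column of its nearest member gene, and the vertical axis is the difference in log2 fold enrichment, Il2ra mut/mut minus WT, with its SE as a bar. Most points of Jak1 lie below 0 and most of Cish above, the lowest point (−1.43) is upstream of Stat3 and the highest (1.32) is in the Mapkapk3 intron near Cish.

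**Figure D4:**
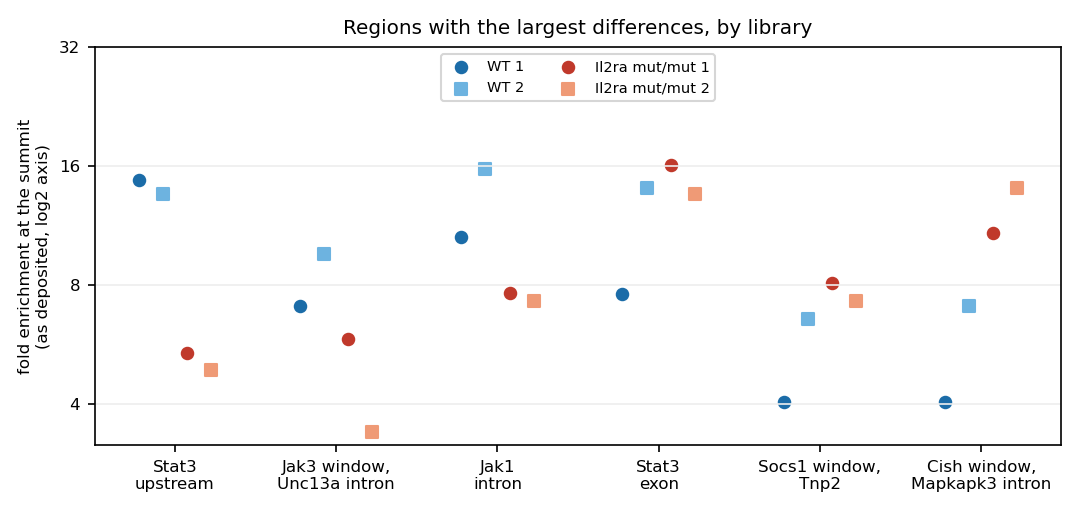
Fold enrichment as deposited (vertical log2 axis) is shown by library for the 3 regions with the largest difference in each direction among those whose percentiles did not overlap. At the Stat3 upstream region the WT libraries (14.7 and 13.6) are well above the Il2ra mut/mut libraries (5.38 and 4.86), and at the Mapkapk3 intron the order is the opposite.

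Open chromatin regions (OCRs) in the sense of the study are peaks that both replicates of a genotype share at an irreproducible discovery rate (IDR) of at most 0.05. There were 66 OCRs at the 9 loci, of which 51 (77.3%) were common to both genotypes, 9 (13.6%) unique to WT and 6 (9.09%) unique to Il2ra mut/mut, against 71.9%, 14.4% and 13.6% of the 29201 OCRs of the genome. The WT-unique OCRs included the region upstream of Stat3 (IDR of 4.24e-05 in WT against 0.176 in Il2ra mut/mut) and that in the Unc13a intron near Jak3 (0.00299 and 0.528). The OCRs unique to Il2ra mut/mut included the Mapkapk3 intron (0.416 and 3.13e-05 in the same order), the Tnp2 exon near Socs1 and a region in Socs2 intron 2 (chr10:95414244-95415108), which had no peak in WT replicate 1 and folds of 6.06 in WT replicate 2 and of 6.28 and 7.78 in Il2ra mut/mut. Each of these 5 also had a called peak in the other genotype, in 1 or both libraries, so these were not regions without a peak in the other genotype. The Stat3 intron 1 region called in both Il2ra mut/mut libraries alone was also among the unique OCRs.

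Genes that work with the members were read out in the same way, and each gene named here had a promoter region called in all 4 libraries. Of all regions called in all 4 libraries, 12.6% had higher percentiles in WT and 26.2% in Il2ra mut/mut. Among the other kinases, Jak2 had 6 regions called in all 4, with 0 higher in WT and 3 higher in Il2ra mut/mut, and Tyk2 had 7, with 2 and 2. Among the other STAT genes, Stat2 had 2 regions, with 0 and 1, Stat4 had 10, with 2 and 6, and Stat6 had 9, with 2 and 3. Jak1 itself had 5 of its 15 regions with the WT percentiles on top and 2 with the opposite order. For none of the relatives named here did the WT order outnumber the opposite one. The WT shares of Tyk2 (28.6%), Stat6 (22.2%) and Stat4 (20%) were still above 12.6%, from 7 to 10 regions per gene, while Jak2 and Stat2 had 0. The sign of the differences is not given gene by gene for these relatives.

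For Socs4 to Socs7, relatives of the inhibitors, 8 of 17 regions were called in all 4, and percentiles were higher in WT at 0 (0.00%) and in Il2ra mut/mut at 4 (50%). For 8 genes of PIAS proteins and phosphatases that act on the pathway, 41 of 82 regions were called in all 4. Percentiles were higher in WT at 4 (9.76%) and in Il2ra mut/mut at 15 (36.6%). The median differences of these lists were 0.16 and 0.03.

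Of 8 genes known as STAT5 targets in lymphocytes (Pim1, Pim2, Osm, Myc, Bcl2, Bcl2l1, Ccnd2 and Ccnd3), 63 of 127 regions were called in all 4 libraries, with percentiles higher in WT at 8 (12.7%) and higher in Il2ra mut/mut at 17 (27%), near the shares of the genome, and a median difference of −0.09. Ccnd3, which encodes a cyclin of the G1 phase, had 6 of the 8 regions higher in WT. Pim1, a kinase gene, had 4 of the 17 higher in Il2ra mut/mut, and none of its regions was higher in WT. No region of the last 3 lists passed an adjusted p of 0.05 by limma. At an unadjusted p under 0.05 there were 0 lower and 1 higher for Socs4 to Socs7, 0 lower and 1 higher for the PIAS proteins and phosphatases, and 4 lower and 3 higher for the STAT5 targets.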

How the data were processed

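ATAC-seq was done on sorted LN Treg cells, 2 libraries per genotype, which the study's methods call biological replicates. The authors trimmed the reads and aligned them to mm10 with BWA mem. Duplicates, mitochondrial reads and discordant pairs were removed, reads were shifted for the transposase, and MACS2 called narrow peaks per library, without pooling. Per the submitters' processing notes, the tools were Trim Galore 0.3.7, BWA 0.7.13, SAMtools 0.1.19, Picard 1.92 and MACS2 2.1.0. Each deposited list holds, per peak, the authors' fold enrichment (a ratio), −log10 p, −log10 q, a score and the summit offset. In 100% of peaks the deposited fold enrichment matched a whole number of reads (tolerance 0.02 reads), with a single background level assumed for each library. Library totals are not in the lists, so no counting interval is given.

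Regions were built in Python (3.11.15; numpy 2.4.6, pandas 2.3.3, scipy 1.17.1, pysam 0.24.0) with the GENCODE (release 21, basic) annotation of GRCm38, the same assembly as mm10. Within a region, the strongest peak stood for its library. Log2 fold enrichment of the 38426 regions called in all 4 libraries was quantile normalized and fitted by genotype with limma (3.58.1, R 4.3.3, eBayes with trend), with Benjamini-Hochberg adjustment over all of them. IDR was a Gaussian copula mixture on −log10 p within each genotype. The limma and IDR steps were run on simulated data as a check of the code. In each simulated set for limma all regions had the same spread. The check therefore does not show how the fit performs on these data. No region filter was applied other than a call in all 4 libraries, so a region lost from one genotype did not enter the limma fit. Of the 126 regions, 59 were left out of it in this way. Sequences were read from the GRCm38 genome. Figures were drawn with matplotlib (3.10.9).

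The member genes and the lists were chosen with earlier results of these data known, and 1 gene of the lists is not reported here. Regions were named by a rule: each gene's promoter regions, its strongest region elsewhere, regions called in one genotype alone, OCRs unique to a genotype, the 3 largest differences in each direction among regions whose percentiles did not overlap, and regions with TTCCNGGAA. Not every region that met the rule is described. Left out are several OCRs unique to a genotype and the Jak1 regions called in one genotype alone. Promoter regions of Stat5b and Socs3 called in a single library are also left out. The intronic regions of Jak1 in introns 7 and 11, those in Cish intron 1, and Ccnd3 and Pim1 were named after seeing their values. The alternatives were windows of 10 and 50 kb, lists cut to one length, merging only at an overlap of 50% of the shorter peak, −log10 q of at least 3, other scalings and measures, other IDR settings, a replicate block and leaving out each library. The ranking among regions called in all 4 libraries and the robust estimate of the spread were chosen after seeing the data.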

Additional observations from a re-analysis of the deposited data

How the results depend on the processing

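With 2 libraries per genotype and unknown depth, the reported limma fit resolved no difference, small or large, at an adjusted p of 0.05. Differences over the 38426 regions ran from −2.06 to 2.07, and the lowest adjusted p by limma was 0.582. The lack of calls therefore does not show that large differences were absent. Under other settings 68 of 78 counts stayed within 1.5 times the reported count, and with a library left out 28 of 44 did. With windows of 10 kb there were 4 WT-unique OCRs. With −log10 q of at least 3 there was 1 region called in both WT libraries alone, 4 regions with higher WT percentiles and 26 with higher Il2ra mut/mut percentiles (1635 and 13893 of 31479 in the genome), and 10 OCRs unique to Il2ra mut/mut, of which there were 11 without the IDR step. Median centring gave 1 region lower and 1 higher past an adjusted p of 0.05 by limma (176 and 142 in the genome), as did the robust estimate, 1 and 1 (164 and 117). The prior degrees of freedom of the fit were 4.52 as reported and infinite under both of these. Without scaling, limma called 11 lower and 3 higher in the genome and 0 and 0 of the members.

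Leaving out one library at a time gave 4 to 17 regions called in WT alone, the most without WT replicate 1, and 2 to 11 called in Il2ra mut/mut alone, the most without WT replicate 2. Regions with higher WT percentiles then numbered 17 to 27, those with higher Il2ra mut/mut percentiles 21 to 34, and OCRs unique to Il2ra mut/mut 6 to 11. A group left with 1 library makes each of these conditions easier to meet.

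The difference at the Stat5a promoter was 0.03 with median centring. It ranged from −0.15 to 0.08 when a library was left out, and the others that changed sign then were the Stat5b promoter (−0.28 to 0.09), the Stat5b intron 1 regions at chr11:100823881-100824846 (−0.44 to 0.00) and chr11:100845655-100846460 (−0.84 to 0.10), the Cish downstream region (−0.11 to 0.19), the outer Socs2 promoter (−0.15 to 0.59), the Jak1 promoter (−0.01 to 0.14), the Jak3 promoter (−0.07 to 0.40) and a Pgs1 intron near Socs3 (−0.60 to 0.02). The cause was not tested.

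Replicate numbers are shared by the genotypes but nothing in the labels ties same-numbered libraries, whose deviations correlated at 0.01 (quantile normalized) and 0.05 (median centred). With a replicate block, 0 regions were called lower and 0 higher by limma, as without it, and 2865 regions of the genome had an unadjusted p under 0.05, against 3285.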
